A study of Mus musculus with 4 samples.

Results

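Multipotent germline stem cells (mGS) and embryonic stem cells (ES), 1 array each, were set together against germline stem cells (GS) and Trp53 knockout GS cells, also 1 array each, which makes all 4 arrays of the series. A gene was a member when its lowest signal on one side exceeded its highest signal on the other, and the ratio of those 2 signals is called the gap. Throughout, the GS and Trp53 KO GS arrays are called the germline arrays, and paired signals are given in the order GS, Trp53 KO GS or mGS, ES. Of 18193 genes with 1 platform symbol, 12896 had a signal above the array median, used as a floor, on at least 1 array and could be compared. Of these, 7574 had sides that did not overlap, and for 2067 the gap was 2-fold or more, and it is mainly these that are described.

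The study set out to find molecules with a role when GS cells turn into mGS cells. GS cells are mouse spermatogonial stem cells kept in culture, and the labels give no strain or added genotype for that array. The Trp53 KO GS culture is GS cells of Trp53 knockout mice, and its title also names ICR. mGS cells are cells that resemble ES cells and arise in GS cultures, and the ES culture is the R1 line. Per the labels' protocols, both GS cultures were grown in a medium based on StemPro-34 and the mGS and ES cultures in a standard ES cell medium, so medium and cell type cannot be told apart. Trp53 itself was not analysed here. Each culture has 1 array, so no difference between cultures has a replicate check, no test was made and every count below is a description. Sex, age, passage number and feeder cells are not given in the labels used here.

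Spermatogonial stem cells are held in an undifferentiated state by transcription factors such as Zbtb16 and by the growth factor GDNF acting on the receptor Ret with its co-receptor Gfra1. Germ cells also keep a set of genes that most other cells silence, among them genes for piRNA production, which guards the genome against transposons, and genes for chromosome pairing in meiosis. The pluripotent state of ES cells rests on Pou5f1, Sox2 and Nanog, and mouse ES cells express ligands of the Nodal and FGF pathways that prepare them for leaving pluripotency.

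The marker genes went with the labels. Zbtb16 read 8212 on the GS and 10560 on the Trp53 KO GS array against 127 and 60.9 on the mGS and ES arrays, Gfra1 1564 and 655 on the germline arrays against 96.8 and 122, and Ret 2076 and 734 on the germline arrays against 66.9 and 88.7. The germ cell RNA-binding and helicase genes were placed the same way, Dazl at 25680 and 21030 on the germline arrays against 569 and 128 and Ddx4 at 9369 and 13690 on the germline arrays against 567 and 809.6. On the other side, Nanog read 8044 and 3979 on the mGS and ES arrays against 1.43 and 10.6, Sox2 11520 and 11770 on the mGS and ES arrays against 1070 and 185, and Esrrb 2570 and 1651 on the mGS and ES arrays against 66.1 and 114. Pou5f1 was well above the floor on all 4 arrays, at 10830 and 10190 on the mGS and ES arrays against 1847 and 2229, and Zfp42 was apart by less than 2-fold, at 3144 and 2318 on the mGS and ES arrays against 1178 and 786. Signals under the floor of 82.7, the median of every array after normalisation, were raised to it before any ratio, are near background and have no order among themselves. A gap to a side with both arrays under the floor is a lower bound, written with "at least".

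The deposited arrays had median signals between 75.7 and 92.3. An added poly-A control RNA, dap, read 271 and 255 on the GS and mGS arrays, while the ES and Trp53 KO GS arrays gave 2545 and 3055, so each side held 1 array of either level. Markers of fibroblasts stood apart on the ES array. Summed over 27 such genes, their signal was 3158 on the GS array with 14 genes above the floor, 6607 on the Trp53 KO GS array with 18, 8885 on the mGS array with 16, and 77170 on the ES array with 26. Col1a2, a fibrillar collagen gene, read 140, 326, 310 and 4195 in that order, and Col3a1 was under the floor on the first 3 and at 2015 on the ES array. The summed signal of 16 Sertoli cell markers was 837 and 792 on the GS and Trp53 KO GS arrays and 10460 and 4417 on the mGS and ES arrays. Rhox5, a homeobox gene of chromosome X, gave 7866 of the mGS and 1624 of the ES value, while Amh, Gdnf, Fshr, Dhh and Cldn11 were under the floor on all 4 arrays. Leydig and peritubular markers, 10 genes, summed to 1836, 4050, 5568 and 17220, of which Acta2 gave 10570 on the ES array, and 14 leukocyte markers to between 1032 and 1814. The part of such cells in the results was not tested.

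Between the sides, 3474 genes (26.9% of those compared) were higher on both mGS and ES arrays and 4100 (31.8%) lower, and 5322 overlapped. With a gap of 2-fold or more, 986 genes (7.65%) were higher and 1081 (8.38%) lower. The gap exceeded the difference between the 2 arrays of either side for 887 of the 986 and for 1004 of the 1081. These genes were chosen for a wide gap on the same arrays, so most would pass and the count is no check. A side with both arrays under the floor shows no difference by construction. The same limits hold for such counts in the lists below. Over all genes compared, the median ratio was 1.24-fold between the ES and mGS arrays, 1.30-fold between the Trp53 KO GS and GS arrays and 1.53-fold between the means of the sides. The median gap was 3.05-fold among the higher genes and 2.78-fold among the lower ones. A gap of at least 8-fold was seen for 114 higher and 74 lower genes, and one of at least 32-fold for 9 and 19. For 254 of the higher and 186 of the lower genes the gap was only a bound, since the other side was under the floor.

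**Figure D1:**
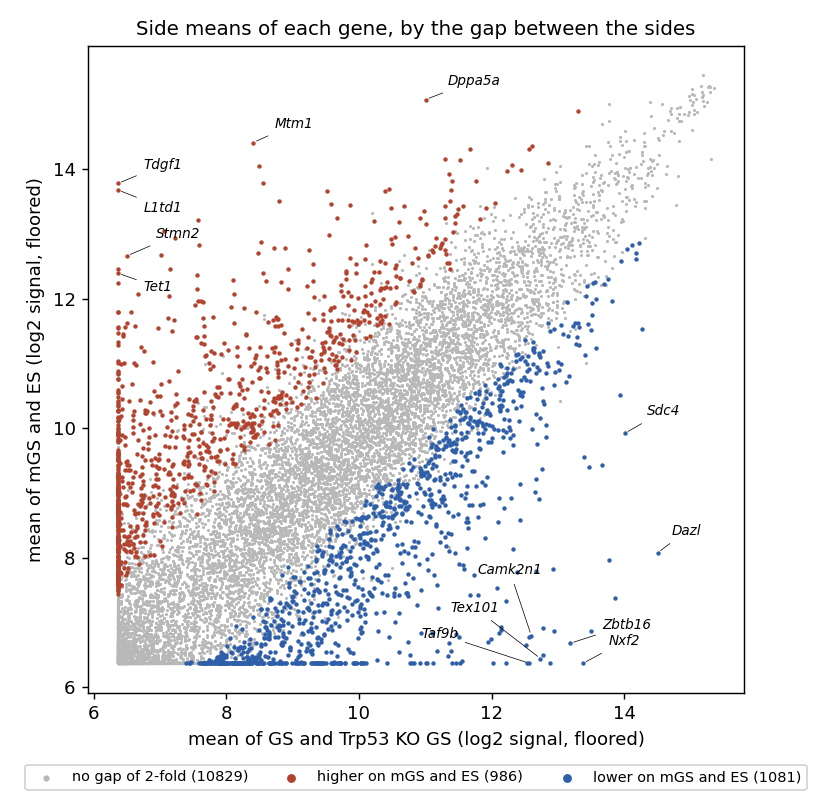
Mean log2 signal of the mGS and ES arrays (y axis) against that of the GS and Trp53 KO GS arrays (x axis) for 12896 genes, 1 point per gene, values under the floor raised to it. The 986 genes higher at a gap of 2-fold or more lie above the diagonal band and the 1081 lower genes below it, with rows of points along the floor on either axis.

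Other probe sets of the same gene give a partly separate reading. Of the 986 higher genes, 500 had a further probe set above the floor, and for 331 every such probe set lay apart the same way, while for 13 some lay apart the other way. Among the 1081 lower genes, 583 had a further probe set, all lying the same way for 367 genes and some the other way for 27. For some genes named below, every further probe set overlapped between the sides. Among them are Smad2, Ski, Gng12, Slc7a2, Rb1 and Nes of the lower genes and Bak1, Fabp3, Lamc1 and Dnajc6 of the higher ones. At the edge of the threshold, a log2 gap of 1, Exosc2, a subunit of the RNA exosome, was just inside at 1804 and 1936 on the mGS and ES arrays against 900 and 577 on the germline arrays. Gfm1, a mitochondrial elongation factor, was just outside at 1601 and 1987 against 802 and 465. Zfp511 and Rhbdf1 were the other 2 of the 3 nearest inside and Gli1 and Cyria outside, with log2 gaps between 0.997 and 1.004 for all 6. Of the lower genes, Hells, a chromatin remodeller needed for DNA methylation, was just inside at 17480 on the GS and 16390 on the Trp53 KO GS array against 5965 and 8184 on the mGS and ES arrays, though 1 of its 2 other probe sets lay the other way. Pogz was just outside at 4426 and 5920 against 1759 and 2214. Ggnbp2 and Paqr7 inside and Vps16 and Wdr37 outside completed the 3 nearest on either side, with log2 gaps between -1.0021 and -0.9994.

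**Figure D2:**
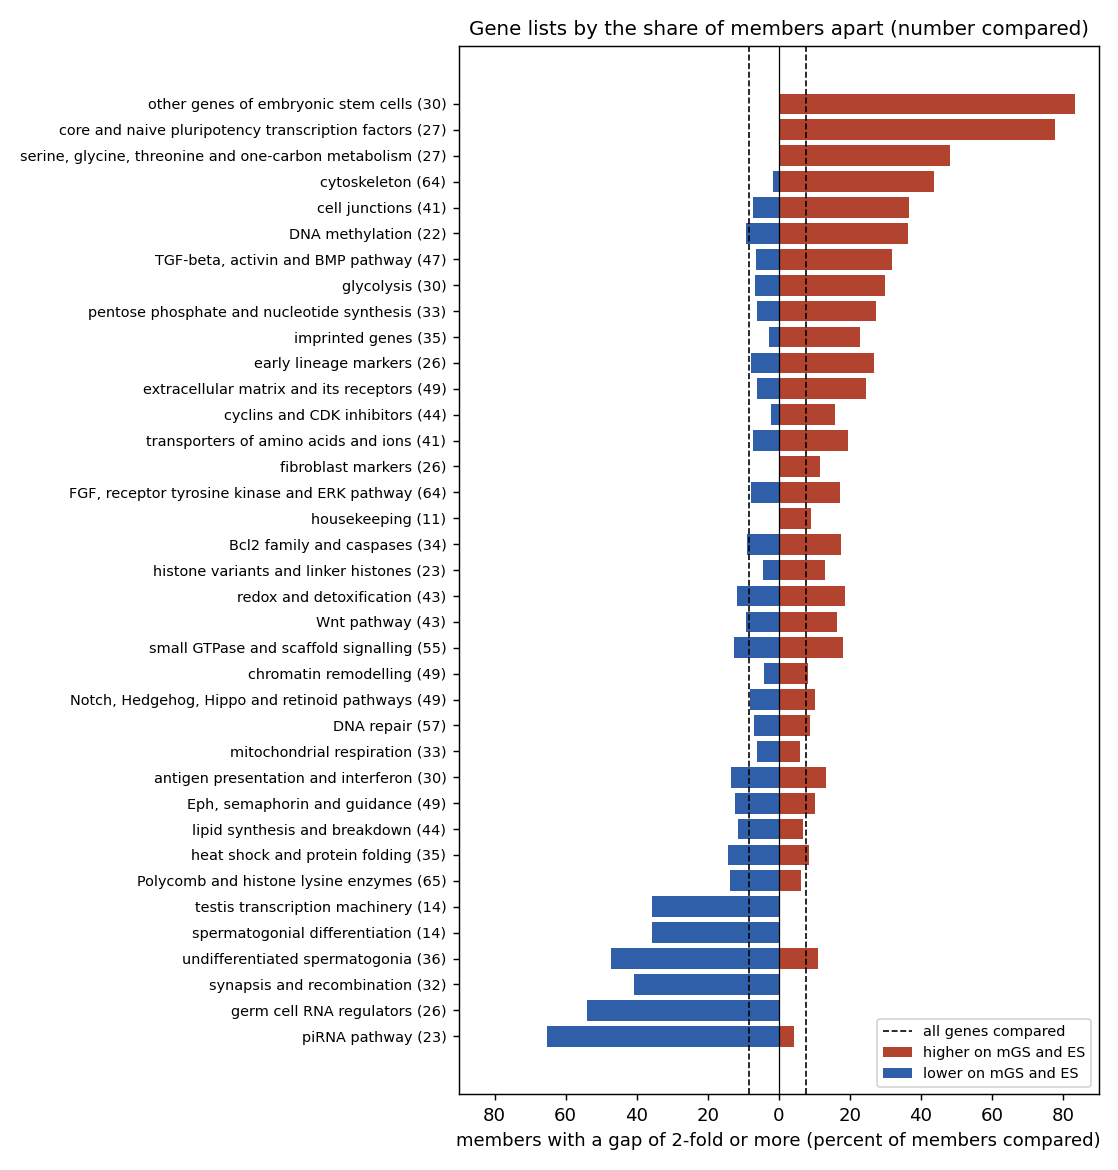
Share of each list's compared members (number in brackets) with a gap of 2-fold or more, higher on the mGS and ES arrays to the right and lower to the left, in percent; lists of 10 or more members are drawn. Dashed lines give the shares over all genes compared, 7.65% and 8.38%, and the lists of pluripotency genes and of germ cell genes lie at the ends.

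The shares over all genes, 7.65% higher and 8.38% lower, are the background for every list and family below, and nothing about a list was tested. Leaving out an array can only keep or widen a gap, so list counts given below for such settings could not fall. Over all genes, 1335 were higher and 1483 lower without the Trp53 KO GS array. The counts were 1624 and 1538 without the mGS array, and 1383 and 1481 without the ES array. With the deposited values taken without normalisation, 858 genes were higher and 1264 lower, and the median of all genes moved by -0.14 (log2).

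The transcription factors of pluripotency were mostly on one side. Of 27 compared, 21 were higher at a gap of 2-fold or more and none was lower, with a median log2 difference between side means of 2.90, against -0.03 over all genes compared. The median signal of the 27 was 259 on the GS, 232 on the Trp53 KO GS, 3046 on the mGS and 2458 on the ES array. Nr0b1, an orphan nuclear receptor of the ES cell network, read 3234 on the mGS and 2755 on the ES array against 5.65 and 28.97 on the GS and Trp53 KO GS arrays, a gap of at least 33.3-fold. Klf5, a Krüppel-like factor of self-renewal, read 6272 and 3990 on the mGS and ES arrays against 339.5 and 222, and Klf2, of the same family, 6139 and 3002 on the mGS and ES arrays against 109.5 and 706. Klf2 was thus uneven on the germline side, and its 2 arrays there differed by more than the sides' gap of 4.25-fold. Utf1, a chromatin-bound factor found in both ES cells and spermatogonia, read 7557 and 7430 on the mGS and ES arrays against 204 and 667. Zscan10 and Zfp296, zinc finger genes of ES cells, were apart by 8.57-fold and 6.46-fold. Otx2, a factor of the epiblast, was under the floor on both germline arrays and read 1094 and 944 on the mGS and ES arrays. Foxd3, a forkhead repressor, was also under the floor there and apart by at least 5.61-fold. Mycn had the smaller gap of 2.51-fold, from a high level on every array (6200 and 8569 on the mGS and ES arrays against 2472 and 2357).

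Further genes known from ES cells were placed alike, 25 of 30 higher and none lower at a gap of 2-fold or more, with a median log2 difference of 3.41. Eras, a Ras-like GTPase active without a stimulus, read 6084 on the mGS and 3845 on the ES array against 36.99 and 29.3 on the GS and Trp53 KO GS arrays, a gap of at least 46.5-fold. L1td1, an RNA-binding protein derived from a transposon, was at 4.04 and 18.5 on the germline arrays and 13620 and 12660 on the mGS and ES arrays. Dppa5a, which binds RNA in pluripotent cells, was already high on the germline arrays and still apart by 12.8-fold, at 36530 and 32790 on the mGS and ES arrays against 2568 and 1648. Dppa2, a regulator of early embryonic genes, read 6579 and 4404 on the mGS and ES arrays against 245 and 577. Dppa3, which protects the maternal genome of the early embryo from demethylation, showed the widest spread within the germline side of these, at 241 and 1062. It reached 2431 and 2643 on the other side. The F-box gene Fbxo15, long used as a reporter of pluripotency, read 7678 and 4649 on the mGS and ES arrays against 512 and 788.

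Ligands and antagonists of the Nodal branch of TGF-beta signalling were among the widest gaps. Of 47 genes of the TGF-beta, activin and BMP pathway compared, 15 were higher and 3 lower at a gap of 2-fold or more, with a median log2 difference of 0.54. The ligand Nodal read 2653 on the mGS and 2336 on the ES array against 62.9 and 8.49 on the GS and Trp53 KO GS arrays, and its co-receptor Tdgf1 15630 and 12740 on the mGS and ES arrays against 1.49 and 2.08. Gdf3, a ligand that acts through the same receptors, was apart by 30.1-fold at 3885 and 3228 on the mGS and ES arrays against 44.3 and 107. Lefty1, a secreted Nodal antagonist, read 1836 and 4952 on the mGS and ES arrays against 11.8 and 68.8. The ligand, its co-receptor and its antagonist were therefore all under the floor on the germline arrays. Inhbb, an activin subunit, was apart by at least 11.6-fold, and Foxh1, the nuclear partner of activated Smads, by at least 5.72-fold. Ltbp4, which binds latent TGF-beta in the matrix, read 1846 and 1924 on the mGS and ES arrays against 40.1 and 80.1. The Id genes, inhibitors of basic helix-loop-helix factors and targets of BMP, divided. Id2 read 828 and 726 on the mGS and ES arrays against 22.1 and 60.1, whereas Id4, a gene of the stem cell pool of spermatogonia, read 308 and 361 on the mGS and ES arrays against 2750 and 2443. Smad2, a transducer of Nodal, and Ski, a Smad corepressor, were lower by 2.69-fold and 2.50-fold.

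Of 43 genes of the Wnt pathway compared, 7 were higher and 4 lower, and the median log2 difference was 0.04. Receptors differed by member. Fzd5 read 2217 on the mGS and 1224 on the ES array against 111 and 42.6 on the GS and Trp53 KO GS arrays and Fzd7 2668 and 2070 on the mGS and ES arrays against 902 and 439.5, while Fzd2 read 323 and 649.7 on the mGS and ES arrays against 2626 and 1883 and Fzd3 258 and 178 on the mGS and ES arrays against 1022 and 877. Among 11 Frizzled receptors compared, 2 were thus higher and 2 lower. A pair of nuclear proteins whose names are easily confused also lay on opposite sides. Tcf7l1, the Wnt repressor of ES cells formerly called Tcf3, was higher by 5.74-fold, and Tcf3, the E protein E2A, was lower by 2.004-fold. Porcn, which lipidates Wnt ligands, read 541 and 375 on the mGS and ES arrays against 65.6 and 99.5, and the co-receptor Lrp6 323 and 269.6 on the mGS and ES arrays against 849.6 and 1445. The other probe set of Lrp6 overlapped between the sides, and it was the brighter one in the deposited and in the median-centred values. No Wnt ligand was apart by 2-fold among 11 compared.

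The FGF, receptor tyrosine kinase and ERK list held 11 higher and 5 lower genes of 64 compared, with a median log2 difference of 0.02. Fgf4, the autocrine FGF of ES cells, read 431 on the mGS and 625 on the ES array against 111 and 54.6 on the GS and Trp53 KO GS arrays, and Fgf17 370 and 441 on the mGS and ES arrays against 13.1 and 42.4. Fgfbp1, a carrier that releases FGF from the matrix, was higher by at least 4.71-fold. Spry2 and Spry4, feedback inhibitors that FGF signalling induces, were higher by 2.40-fold and 3-fold. Spry4 and the ETS factor Etv5 showed a wide difference within the germline side. Spry4 read 330 on the GS and 32.5 on the Trp53 KO GS array, and Etv5 1955 and 507, both below the mGS (990.1 and 6360) and ES arrays (1126 and 4617). Higher on the germline arrays were, beside Ret and Gfra1, the growth factor Pdgfb at 1798 and 598 on the germline arrays against 171 and 109.5, the receptor Igf1r at 2366 and 2163 on the germline arrays against 669 and 891 and the immediate early gene Fos at 972 and 1540 on the germline arrays against 348 and 229. These 5 were the list's lower genes, and without the ES array there were 10.

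Other signalling lists were mixed. Of 49 genes of the Notch, Hedgehog, Hippo and retinoid pathways 5 were higher and 4 lower. Gli2 and Gli3, nuclear effectors of Hedgehog, went opposite ways, Gli2 at 1514 on the mGS and 803 on the ES array against 30.9 and 16.6 on the GS and Trp53 KO GS arrays and Gli3 at 574 and 695 on the mGS and ES arrays against 1664 and 2330. Yap1, the coactivator of the Hippo pathway, read 2937 and 3638 on the mGS and ES arrays against 789 and 864, and the Notch target Hes1 302 and 367 on the mGS and ES arrays against 1099 and 1061. Among 49 genes of Eph, semaphorin and guidance signalling 5 were higher and 6 lower. Sema3e was apart by at least 9.28-fold and Efnb2 by 8.64-fold toward the mGS and ES arrays, and Sema6d by 6.92-fold and Ephb1 by at least 2.69-fold toward the germline arrays. Gamma subunits of G proteins divided as well, as Gng3 read 1714 and 2591 on the mGS and ES arrays against 65.8 and 66.99 and Gng12 794 and 982 on the mGS and ES arrays against 2760 and 5640. Camk2n1, an inhibitor of the calcium-dependent kinase CaMKII, had one of the widest gaps toward the germline, at 6033 and 6386 on the germline arrays against 118 and 105, and Prkar2b, a regulatory subunit of protein kinase A, was lower by 10.3-fold.

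Genes of undifferentiated spermatogonia were more often lower than higher. Of 36 compared, 17 were lower and 4 higher at a gap of 2-fold or more, with a median log2 difference of -1.48. Egr4, an early growth response factor that GDNF induces, read 1326 on the GS and 3182 on the Trp53 KO GS array against 50.96 and 59.2 on the mGS and ES arrays. Sox3 was lower by 6.30-fold at 1703 and 5385 on the germline arrays against 209 and 270.3. Foxo1, a factor of stem cell maintenance in the testis, read 2858 and 3575 on the germline arrays against 1021 and 1148. The 4 higher genes of the list were Utf1, Etv5, Upp1 and Cdh1. Cdh1, the epithelial cadherin, read 1541 on the GS array but 55.8 on the Trp53 KO GS array, against 4894 and 9237 on the mGS and ES arrays. The gap was larger than both within-side differences for 1 of these 4 and for 16 of the 17 lower genes.

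Of 14 genes of spermatogonial differentiation compared, 5 were lower and none higher. Sohlh1, a helix-loop-helix factor of spermatogonia, was lower by at least 7.70-fold. It read 1054 on the GS and 636 on the Trp53 KO GS array against 11.9 and 12.9 on the mGS and ES arrays. Stra8, the gene that retinoic acid induces before meiosis, was uneven between the germline arrays, at 389 on the GS and 2794 on the Trp53 KO GS array against 50.6 and 81.4 on the mGS and ES arrays. Meioc, a partner of meiotic RNA control, was apart by 2.12-fold, and the gap was larger than both within-side differences for 2 of the 5. Without the Trp53 KO GS array, 9 of the list were lower.

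RNA regulators of germ cells held the widest gap of the lower genes. Of 26 compared, 14 were lower and none higher at a gap of 2-fold or more, and the gap exceeded both within-side differences for all 14. Nxf2, a testis paralogue of the mRNA export receptor, read 8521 on the GS and 13350 on the Trp53 KO GS array against 55.9 and 29.6 on the mGS and ES arrays, a gap of at least 103-fold. Cpeb1, which controls poly-A tails of stored mRNAs, read 1868 and 1775 on the germline arrays against 63.1 and 52.5. Rbm44 and Rbm46, RNA-binding genes of germ cells, were lower by 18.9-fold and 17.3-fold. The helicase genes Ddx43 and Ddx25, both of the testis, were lower by 6.52-fold and 3.16-fold.

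In the piRNA pathway 15 of 23 genes compared were lower, with a median log2 difference of -3.33, the lowest of the 40 lists. The median signal of the 23 was 1867 and 4099 on the GS and Trp53 KO GS arrays and 352 and 160 on the mGS and ES arrays. Mov10l1, the helicase that hands precursors to the pathway, read 4907 on the GS and 7048 on the Trp53 KO GS array against 122 and 65.3 on the mGS and ES arrays. Asz1, a mitochondrial scaffold of piRNA processing, read 4866 and 7483 on the germline arrays against 146 and 47.2, and Gtsf1, a partner of PIWI proteins, 5733 and 8666 on the germline arrays against 177 and 77.5. Tudor domain genes, whose products bind methylated PIWI proteins, were lower for 4 of 7 compared, among them Tdrd1 at 1101 and 2861 on the germline arrays against 4.77 and 3.73 and Tdrd7 at 1980 and 4337 on the germline arrays against 23.6 and 144. The 1 higher gene of the list was Dnmt3l, which assists the enzymes of de novo DNA methylation and is also on the list of ES cell genes, at 9652 and 7473 on the mGS and ES arrays against 43.5 and 218.

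Meiotic genes for synapsis and recombination were lower for 13 of 32 compared and higher for none, with a median log2 difference of -1.17. Components of the synaptonemal complex, which zips paired chromosomes, read well above the floor on the germline arrays. Sycp3 read 4873 on the GS and 12490 on the Trp53 KO GS array against 139 and 373 on the mGS and ES arrays, Sycp1 7563 and 2732 on the germline arrays against 181 and 61.8 and Sycp2 1286 and 2372 on the germline arrays against 97.8 and 6.24. Tex12, of its central element, read 2682 and 3386 on the germline arrays against 86.4 and 29.9. Stag3, the meiotic cohesin subunit, read 6239 and 6869 on the germline arrays against 293 and 169, and Tex11, an X-linked gene of crossover formation, 2879 and 2371 on the germline arrays against 127 and 49.5.

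Of 14 genes of the testis transcription machinery compared, 5 were lower and none higher, and 9 were lower without the Trp53 KO GS array. Taf7l, a paralogue of the TFIID subunit Taf7, read 10900 on the GS and 12240 on the Trp53 KO GS array against 165 and 44.02 on the mGS and ES arrays, and Taf9b, a paralogue of Taf9, 6321 and 5848 on the germline arrays against 44.02 and 39.6. Gaps of the others were smaller, 2.52-fold for the TBP-like factor Tbpl1 and 2.38-fold for Taf4b, which is expressed in gonads. Brdt, the testis bromodomain gene, was low on the germline arrays as well, at 229 and 337.

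Promoters of these germ cell genes are shown because a 6-base palindrome, the E-box CACGTG, recurs in them. It is the site of Myc, Max and related factors. RefSeq start sites of the mouse assembly GRCm38.p6 gave a window of 250 bases before to 50 after the first listed start for 10428 of the 12896 genes. The window held CACGTG for 1095 of these (10.5%), for 67 of 771 higher genes (8.69%) and for 106 of 888 lower genes (11.94%). Over the 6 germ cell lists described above, 18 of 45 lower genes with a window held it (40.0%), against 5 of 58 members of those lists that were not lower at a gap of 2-fold (8.62%) and 88 of 843 lower genes outside the lists (10.44%). A match is a description of letters and not a binding site. Shown are 7 of these 18. The following stretches of 61 bases lie before the start site, read 5′ to 3′ on the gene's strand, with every CACGTG in capitals. Nxf2 is at chrX:134964755-134964815 on the minus strand, Taf7l at chrX:134476506-134476566 on the minus strand, Tex12 at chr9:50561328-50561388 (minus), Stag3 at chr5:138280312-138280372 (plus), Sycp1 at chr3:102936161-102936221 (minus), Sycp3 at chr10:88459517-88459577 (plus) and Ddx4 at chr13:112652311-112652371 (minus).
Nxf2: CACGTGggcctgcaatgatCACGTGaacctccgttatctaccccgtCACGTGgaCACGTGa
Taf7l: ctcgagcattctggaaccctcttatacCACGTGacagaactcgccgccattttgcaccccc
Tex12: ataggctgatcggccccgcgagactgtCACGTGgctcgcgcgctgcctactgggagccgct
Stag3: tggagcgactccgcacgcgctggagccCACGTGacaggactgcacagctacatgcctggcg
Sycp1: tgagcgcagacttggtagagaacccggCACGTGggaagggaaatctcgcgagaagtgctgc
Sycp3: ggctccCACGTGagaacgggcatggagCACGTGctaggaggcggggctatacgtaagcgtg
Ddx4: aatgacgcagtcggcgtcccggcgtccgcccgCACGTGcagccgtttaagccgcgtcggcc
Nxf2, the lower gene with the widest gap, had 5 matches before its start site, 4 of them in the stretch shown, and Sycp3 had 2. In the others there was 1.

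**Figure D3:**
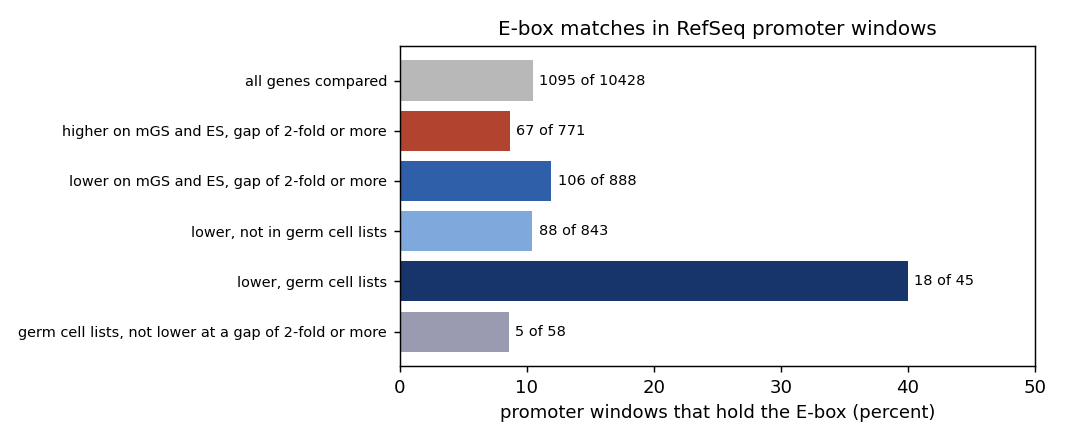
Share of RefSeq promoter windows (250 bases before to 50 after the start) that hold CACGTG, in percent, for 6 sets of genes, with the counts beside the bars. The bar for germ cell list genes that were lower, 18 of 45, is the longest, and the bar for members of the same lists that were not lower, 5 of 58, is below that of all genes.

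Further letters were searched on both strands in the same windows. The octamer ATGCAAAT, bound by Pou factors, was in 139 of all 10428 windows (1.33%), in 15 of 771 of the higher genes (1.95%) and in 3 of 34 of the higher genes of the 2 pluripotency lists (8.82%). Those 3 were Zfp296, Chchd10 and Pipox, a peroxisomal oxidase gene named here after its value was seen. The stretch of Zfp296, shown with the octamer in capitals as read on the other strand, is at chr7:19577150-19577210 on the plus strand.
Zfp296: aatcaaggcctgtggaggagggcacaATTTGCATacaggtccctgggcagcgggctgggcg
GGCGGGAA, a form of the E2F site, was in 4.16% of all windows, 3.37% of the higher and 4.39% of the lower genes. CCAAT was in 38.7%, 35.2% and 37.6%, and TATAAA, the TATA box, in 7.13%, 10.4% and 6.98%. The median number of CpG pairs per window was 21 over all genes, 18 for the higher and 24 for the lower genes, with a median G+C content of 61%, 60.3% and 63.7%.

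DNA methylation genes were higher for 8 of 22 compared and lower for 2. Tet1 and Tet2 encode dioxygenases that oxidise 5-methylcytosine. Tet1 read 5578 on the mGS and 5199 on the ES array against 41.2 and 56.9 on the GS and Trp53 KO GS arrays. Tet2 read 1746 and 736 on the mGS and ES arrays against 83.3 and 79.4, near the floor on both germline arrays. Zfp57, which keeps imprints methylated, read 1088 and 677 on the mGS and ES arrays against 94.8 and 47.2, and Gadd45a, linked to demethylation and growth arrest, 2222 and 2349 on the mGS and ES arrays against 463 and 422. Mbd2, a reader of methylated DNA, was lower by 2.59-fold.

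Among Polycomb and histone lysine enzymes 4 of 65 were higher and 9 lower, with a median log2 difference of -0.18. Scml2, a germ cell Polycomb protein encoded on chromosome X, read 7236 on the GS and 8580 on the Trp53 KO GS array against 166 and 21.96 on the mGS and ES arrays, the widest gap of the list at 43.6-fold. Components of the first Polycomb complex followed, Bmi1 at 3067 and 6139 on the germline arrays against 90.1 and 384 and Pcgf5 at 6251 and 6984 on the germline arrays against 1014 and 738, while Cbx7, the chromodomain subunit of that complex in ES cells, was higher by 2.21-fold. Of 18 lysine demethylases, 2 were higher and 4 lower. Paralogues of one subfamily, which demethylate histone H3, were divided. Kdm5c, on chromosome X, was higher at 436 and 508 on the mGS and ES arrays against 115 and 182. Kdm5a was lower at 944 and 1080 on the mGS and ES arrays against 4602 and 5328, and the Y-linked Kdm5d at 80.4 and 32.4 on the mGS and ES arrays against 479 and 827. Kdm1b, which demethylates histones at imprinted genes in oocytes, read 2492 and 3338 on the germline arrays against 479 and 346, and Kdm4c 1071 and 1692 on the mGS and ES arrays against 114 and 206.

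Histone variant and remodelling genes showed smaller sets. H2az1, a variant of histone H2A at promoters, was higher by 3.26-fold, and Macroh2a2, a variant of silent chromatin, lower by 2.87-fold. Arid5b and Chd9 were higher by 5.996-fold and 6.13-fold, and Hdac6, a deacetylase of the cytoplasm, lower by 2.80-fold.

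Genes of serine, glycine, threonine and one-carbon metabolism were higher for 13 of 27 compared and lower for none, with a median log2 difference of 1.54. The median signal of the 27 was 1193 and 1428 on the germline arrays and 3317 and 3914 on the mGS and ES arrays. Bcat1, which transfers the amino group of branched-chain amino acids in the cytosol, read 4747 on the mGS and 3914 on the ES array against 24.3 and 124 on the GS and Trp53 KO GS arrays. Its mitochondrial counterpart Bcat2 read 2074 and 1615 on the mGS and ES arrays against 73.5 and 24.5. Gldc, of the glycine cleavage system that feeds one-carbon units, read 2709 and 2732 on the mGS and ES arrays against 179.5 and 192, with almost equal signals within each side. Cth, which makes cysteine, was apart by 10.4-fold at 3233 and 4963 on the mGS and ES arrays against 310.4 and 126. Mthfd1l, the mitochondrial formate-producing enzyme, was apart by 6.73-fold. Gaps in the list ran from 2.27-fold to 31.6-fold.

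In glycolysis 9 of 30 genes compared were higher and 2 lower. Pfkl, a subunit of the phosphofructokinase that commits glucose to the pathway, read 2867 on the mGS and 2917 on the ES array against 121 and 173 on the GS and Trp53 KO GS arrays, a gap of 16.6-fold, and its paralogue Pfkp 8254 and 1658 on the mGS and ES arrays against 209.6 and 451. Pgk1 read 12740 and 13870 on the mGS and ES arrays against 1339 and 1469 and Ldha, which makes lactate, 18080 and 18370 on the mGS and ES arrays against 2776 and 2274. Slc16a3, an exporter of lactate, was under the floor on the germline arrays and apart by at least 5.20-fold. Against these stood Pdha2, the testis form of a pyruvate dehydrogenase subunit, at 1116 and 873 on the germline arrays against 26.3 and 18.2, and the kinase gene Pdk3, just inside the threshold at 2.004-fold. Pgk1 was also the 1 of 11 housekeeping genes compared that was apart by 2-fold.

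For Tktl1 and Slc25a31, a testis form was on the germline side and a widely expressed paralogue on the other. Tktl1, a transketolase-like gene, read 6408 on the GS and 8859 on the Trp53 KO GS array against 75.97 and 18.96 on the mGS and ES arrays, while transketolase itself, Tkt, read 14080 and 20800 on the mGS and ES arrays against 4233 and 6070. Slc25a31, the ADP/ATP carrier of the testis, read 14480 and 15180 on the germline arrays against 338 and 55.2, while the carrier Slc25a5 read 21830 and 20240 on the mGS and ES arrays against 8463 and 4636. Cyct, testis cytochrome c, was lower by 3.86-fold, and Cox7b2, a testis form of a cytochrome oxidase subunit, by at least 23.5-fold at 2537 and 1946 on the germline arrays against 51.5 and 8.77. Cox6b2, the testis form of another subunit, went the other way by 1.78-fold at 574 and 1657 on the mGS and ES arrays against 322 and 237. Of 33 genes of mitochondrial respiration compared, 2 were higher, Slc25a5 and Chchd10, and 2 lower, Slc25a31 and Cyct, with a median log2 difference of 0.01.

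Nucleotide synthesis and the pentose phosphate pathway gave 9 higher and 2 lower genes of 33. Pnp, which salvages purines, read 7184 on the mGS and 6880 on the ES array against 394 and 568 on the GS and Trp53 KO GS arrays, and Gart, of the purine synthesis pathway, 7244 and 6929 on the mGS and ES arrays against 2405 and 2379. Upp1, uridine phosphorylase, was uneven, at 13060 and 5082 on the mGS and ES arrays against 328 and 1727. Rpia, which makes ribose 5-phosphate, was the other lower gene beside Tktl1, at 3142 and 1856 on the germline arrays against 307 and 368.

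Of 44 genes of lipid synthesis and breakdown compared, 3 were higher and 5 lower, with a median log2 difference of -0.48. The higher count was close to the share over all genes and the lower count somewhat above it. Without the Trp53 KO GS array, 13 were lower. Srebf2, the transcription factor of cholesterol synthesis, read 2451 on the GS and 3902 on the Trp53 KO GS array against 966 and 894 on the mGS and ES arrays, and Dhcr7, of the last step of that synthesis, 3514 and 6226 on the germline arrays against 1235 and 1029. Abca1, which exports cholesterol, was lower by 3.32-fold, but its 2 germline arrays differed by 3.90-fold, at 3531 and 13750. Acsl3, which activates fatty acids, was lower by 4.48-fold. The fatty acid binding genes Fabp3 and Fabp5 were higher by 7.08-fold and 8.07-fold. Among 9 apolipoproteins compared 2 were higher and none lower, with Apoe at 8493 and 7221 on the mGS and ES arrays against 272 and 70.9 and Apoc1 at 1012 and 806 on the mGS and ES arrays against 86.5 and 69.8.

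Of 41 transporters of amino acids and ions compared, 8 were higher and 3 lower, with a median log2 difference of -0.02. Slc7a3, a carrier of arginine and lysine, read 5726 on the mGS and 7501 on the ES array against 9.72 and 203 on the GS and Trp53 KO GS arrays. Slc7a7, a subunit of another carrier of such amino acids, was apart by 14.5-fold, and Slc6a15, a carrier of branched-chain amino acids, by at least 10.7-fold. Slc29a1, which carries nucleosides, read 5292 and 3303 on the mGS and ES arrays against 587 and 702. On the germline side Slc7a2, another carrier of arginine and lysine, was apart by 2.63-fold at 226 and 272 on the germline arrays against 27.6 and 85.9. Slc36a4 was apart by 4.91-fold and the zinc carrier Slc39a6 by 4.02-fold. Over 215 solute carriers compared, 19 were higher and 13 lower, but 18 and 19 in the deposited values without normalisation.

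Detoxification genes were 8 higher and 5 lower of 43, but 4 higher and 5 lower in the deposited values without normalisation. The glutathione transferases split within one family, 4 higher and 2 lower of 15 (2 and 2 in the deposited values). Gsta4, which conjugates products of lipid peroxidation, read 14750 on the mGS and 11530 on the ES array against 2662 and 681 on the GS and Trp53 KO GS arrays, and Gsto2 76.3 and 78.2 on the mGS and ES arrays against 666 and 653. Txnip, an inhibitor of thioredoxin, read 6386 and 10690 on the germline arrays against 2437 and 1501, and Prdx4, a peroxiredoxin of the secretory pathway, was lower by 2.28-fold.

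**Figure D4:**
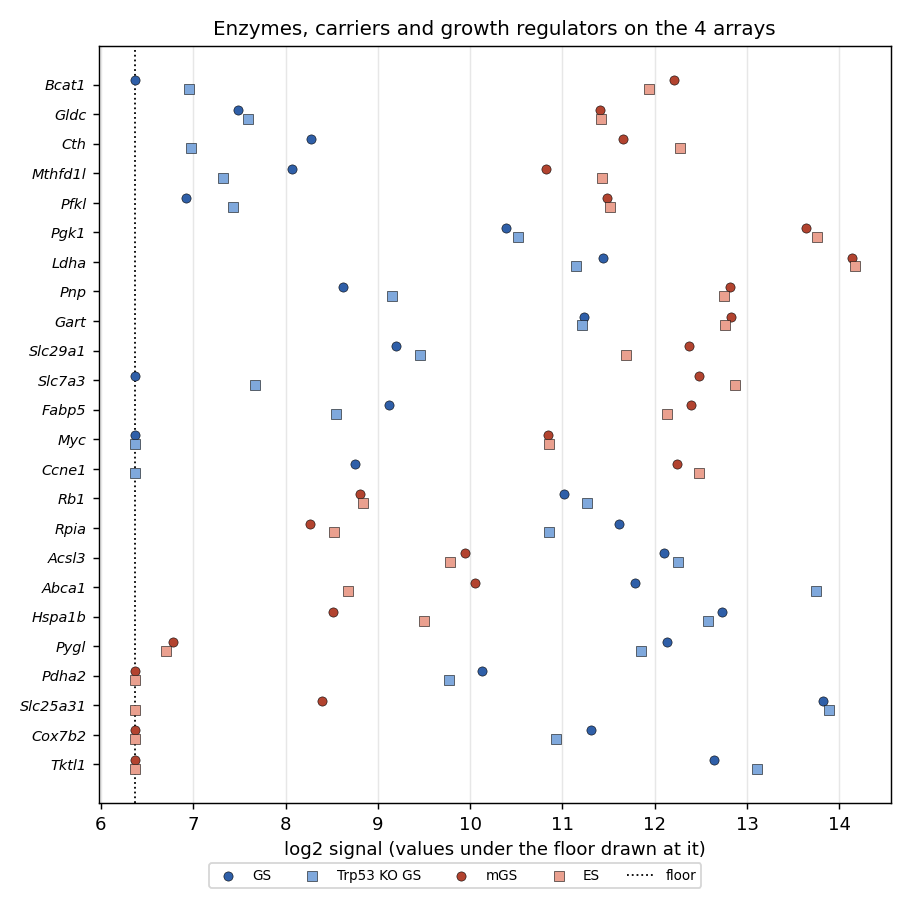
Log2 signal of 24 genes on the GS, Trp53 KO GS, mGS and ES arrays, 1 marker per array, with values under the dotted floor drawn at it. In each row the 2 blue markers (germline side) and the 2 red markers (mGS and ES) do not overlap, with Bcat1 to Ccne1 higher on the mGS and ES arrays and Rb1 to Tktl1 lower.

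Cytoskeletal genes were the largest set by number among the lists, 28 of 64 higher and 1 lower, with a median log2 difference of 1.45. Stmn2, which destabilises microtubules, read 6122 on the mGS and 6865 on the ES array against 41.6 and 99.3 on the GS and Trp53 KO GS arrays, and Basp1, a membrane-bound growth cone protein, 6812 and 7828 on the mGS and ES arrays against 147 and 252. Tmsb4x, which sequesters actin monomers, read 15120 and 19240 on the mGS and ES arrays against 250.2 and 519. The tubulin gene Tubb3 was apart by 7.80-fold, and the simple epithelial keratins Krt8 and Krt18 by 7.43-fold and 4.32-fold. Tagln and Acta2, genes of smooth muscle actin filaments, are on the fibroblast list too. Tagln read 1162 and 6541 on the mGS and ES arrays against 22.4 and 91.2, and Acta2 2319 and 10570 on the mGS and ES arrays against 226 and 671. Beside these, the fibroblast list summed to 3158 and 6607 on the germline arrays, 8885 on the mGS and 77170 on the ES array. For Stmn2, Basp1 and Tmsb4x the mGS and ES arrays differed by 1.12-fold, 1.15-fold and 1.27-fold, for Tagln by 5.63-fold and for Acta2 by 4.56-fold. With the ES array left out, 29 cytoskeletal genes were higher on the mGS array alone, and with the mGS array left out, 39. The one lower gene was Nes, nestin, at 345 and 599.8 on the germline arrays against 126 and 46.01. Its 2 other probe sets above the floor overlapped between the sides.

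Cell junction genes were higher for 15 of 41 compared and lower for 3. The gap junction gene Gja1 read 7716 on the mGS and 11710 on the ES array against 54.9 and 436 on the GS and Trp53 KO GS arrays, and Gjb5 1243 and 471 on the mGS and ES arrays against 8.28 and 6.56. Claudins, which seal tight junctions, were higher for 4 of 7 compared, with Cldn6 at 656 and 1426 on the mGS and ES arrays against 38.4 and 35.2 and Cldn7 at 432 and 1440 on the mGS and ES arrays against 18.1 and 22.04. Other proteins of the same junctions were lower, occludin (Ocln) at 135 and 218 on the mGS and ES arrays against 1519 and 1247 and tricellulin (Marveld2) at 119.9 and 159 on the mGS and ES arrays against 962 and 947. Jam2 and Jam3, paralogous junction adhesion molecules, went opposite ways, Jam2 higher by at least 9.87-fold and Jam3 lower by 2.49-fold. Perp, a desmosomal protein known as a target of p53, was under the floor on both the GS and the Trp53 KO GS array and read 1354 and 1124 on the mGS and ES arrays.

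Of 49 matrix genes and receptors, 12 were higher and 3 lower. Sparc, a matricellular protein, read 6906 on the mGS and 7285 on the ES array against 567 and 316 on the GS and Trp53 KO GS arrays. Laminin chains of basement membranes were higher for 3 of 8 compared, with Lamc1 at 1563 and 1461 on the mGS and ES arrays against 412 and 378, and integrins for 3 of 21. Of 27 collagens compared, 1 was higher and 1 lower, below the shares over all genes, and 20 overlapped. The higher one was Col18a1, at 3681 and 2935 on the mGS and ES arrays against 649 and 298. The lower one was Col13a1, at 32.7 and 77.3 on the mGS and ES arrays against 1780 and 653. Timp1, an inhibitor of matrix proteases, was higher on the ES than on the mGS array, at 1441 and 6968 on the mGS and ES arrays against 280.1 and 273. Without the ES array 14 matrix genes were higher, and without the mGS array 21. Annexins, which bind membranes with calcium, were higher for 5 of 8 and S100 proteins for 2 of 7, with Anxa2 at 1628 and 6951 on the mGS and ES arrays against 444 and 415 and S100a6 at 2075 and 11790 on the mGS and ES arrays against 511 and 785. Both were highest on the ES array, as the fibroblast list was, whose part was not tested. Sdc4, a heparan sulphate proteoglycan, was the widest of the lower matrix genes, at 9708 and 28060 on the germline arrays against 904 and 1042, though its other probe set lay the other way.

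Of 44 cyclin, CDK inhibitor and related genes, 7 were higher and 1 lower. Leaving out the Trp53 KO GS array gave 7 higher and 9 lower. That setting also raised the lower count over all genes, from 1081 to 1483. Myc read 1835 on the mGS and 1850 on the ES array against 5.14 and 12.8 on the GS and Trp53 KO GS arrays, a gap of at least 22.2-fold. Ccne1, cyclin E, which drives entry into S phase, read 4842 and 5729 on the mGS and ES arrays against 431 and 76.02. Cdk6 and cyclin D3 (Ccnd3) were apart by 2.48-fold and 2.08-fold, and 1 of the 2 other probe sets of Ccnd3 lay the other way. The lower gene was Rb1, the retinoblastoma gene that holds cells before S phase, at 2068 and 2471 on the germline arrays against 449 and 459. The other probe set of Rb1 above the floor overlapped between the sides.

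Death regulators of the Bcl2 family and caspases gave 6 higher and 3 lower genes of 34. Bcl2l11 (Bim), Bbc3 (Puma) and Bak1, all of which promote death, were higher by 5.97-fold, 3.41-fold and at least 3.44-fold. Bbc3, a target of p53, read 133 on the GS and 43.4 on the Trp53 KO GS array. The list's lower genes were the caspase genes Casp2 and Casp9, by 3.12-fold and 2.36-fold, and Diablo, by 2.42-fold. The other probe set of Diablo above the floor overlapped between the sides. Of 57 DNA repair genes 5 were higher and 4 lower, near the shares over all genes and all by less than 3.5-fold. Ddb2, of damage recognition in nucleotide excision repair, read 950 on the GS and 921 on the Trp53 KO GS array against 264 and 252 on the mGS and ES arrays. Xpc, of the same step, read 1003 and 2186 on the germline arrays against 484 and 387, and Xrcc5 (Ku80), of end joining, 4899 and 2581 on the mGS and ES arrays against 1104 and 1119.

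Of 35 heat shock and protein folding genes compared, 3 were higher and 5 lower, and of 42 J-domain proteins 4 were higher and 5 lower. The higher counts were close to the share over all genes and the lower counts above it. The median log2 difference was -0.30 for the first set and -0.32 for the second. The inducible Hsp70 genes Hspa1a and Hspa1b share most of their sequence, so their signals may not be separate. Hspa1a read 1351 on the GS and 1149 on the Trp53 KO GS array against 94.1 and 144 on the mGS and ES arrays. Hspa1b read 6765 and 6113 on the germline arrays against 367 and 726. Dnajb9, a J-domain gene of the unfolded protein response, was lower by 3.98-fold, and Dnajc6, a J-domain gene of clathrin uncoating, was higher by 4.41-fold at 507 and 405 on the mGS and ES arrays against 28.4 and 91.9. The small heat shock gene Hspb1 was higher, at 18050 and 11110 on the mGS and ES arrays against 278 and 505.

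Translation factors were higher for 6 of 46 and lower for 2. Eif2s3x, the X-linked gamma subunit of eIF2, read 6715 on the mGS and 8013 on the ES array against 1413 and 1491 on the GS and Trp53 KO GS arrays, and Eif4e2, a cap-binding homologue, 9205 and 5721 on the mGS and ES arrays against 1451 and 838, with 1 of its 4 other probe sets the other way. Eif5a2 and Eif1b, each the less common paralogue of its factor, were lower by 5.69-fold and 3.86-fold. In the ubiquitin system, deubiquitinases of the Usp family were higher for 2 and lower for 8 of 49, and F-box genes higher for 3 and lower for 8 of 54. Usp9y, on chromosome Y, read 1460 and 1283 on the germline arrays against 19.7 and 15.8. Fbxo32, the ubiquitin ligase subunit of muscle wasting, and Fbxo41 were lower by at least 22.8-fold and at least 25.3-fold.

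Genes of antigen presentation and interferon were even, 4 higher and 4 lower of 30. H2-K1 and H2-D1, heavy chains of class I molecules, whose probes may also bind other class I genes, were lower by 3.03-fold and 2.99-fold. For H2-D1, the mGS and ES arrays differed by 3.1-fold, at 181 and 561, which was more than the gap. Of its 6 other probe sets above the floor, 3 were lower. Irf1, a regulator of these class I genes, read 3449 on the GS and 4357 on the Trp53 KO GS array against 1615 and 907 on the mGS and ES arrays. Interferon-induced transmembrane genes, which early germ cells also express, were higher for 3 of 4 compared, led by Ifitm2 at 10950 and 8583 on the mGS and ES arrays against 1222 and 545.

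Imprinted genes, which are expressed from 1 parental copy, were higher for 8 of 35 and lower for 1, and 13 were higher without the mGS array. Peg3, expressed from the paternal copy, read 11950 on the mGS and 7220 on the ES array against 1430 and 1687 on the GS and Trp53 KO GS arrays. Impact, also paternal, read 2743 and 1844 on the mGS and ES arrays against 286 and 423, though 1 of the 2 other probe sets of Impact lay the other way. Meg3, a noncoding RNA from the maternal copy, read 4455 and 844 on the mGS and ES arrays against 237 and 196, and 8 of its 10 other probe sets were higher as well. Snrpn and Magel2, paternal genes of one cluster, were under the floor on the germline arrays. Snrpn read 211 and 215 on the mGS and ES arrays and Magel2 207 and 193. The gap exceeded both within-side differences for 5 of the 8.

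Transcription factor families showed one-sided and divided sets. Krüppel-like factors were higher for 6 of 14 and lower for none. Zbtb factors were lower for 6 of 39 and higher for 1, with Zbtb33 (Kaiso) at 3346 on the GS and 3951 on the Trp53 KO GS array against 749 and 889 on the mGS and ES arrays after Zbtb16. Zic5, a zinc finger gene of the early neural plate, was higher by 10.8-fold, and 2 of 3 Zic factors were higher. Of 13 Sox factors, Sox2 and Sox15 were higher, by 10.8-fold and at least 4.15-fold, and Sox3, of the same subgroup as Sox2, was lower. Among 22 forkhead factors 2 were higher and 4 lower, with Foxf1 at 1255 and 6311 on the germline arrays against 74.5 and 27.4. Of 18 Hox genes 3 were lower, Hoxb2, Hoxb4 and Hoxb13, and Hoxa5 was higher. Of 316 Zfp zinc finger genes 19 were higher and 23 lower, slightly below the shares over all genes. Tfap2c, a factor of primordial germ cells and trophoblast, read 2124 and 2013 on the mGS and ES arrays against 76.5 and 94.2, and Afp, alpha-fetoprotein, a gene of visceral endoderm and liver, was on the germline side, at 2646 and 2784 on the germline arrays against 35.5 and 1.40.

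Tex genes, named for expression in the testis, were lower for 8 of 16 and higher for none. Tex101, a surface protein of germ cells, read 6287 on the GS and 7418 on the Trp53 KO GS array against 91.5 and 9.87 on the mGS and ES arrays, and Tex13b 4978 and 4537 on the germline arrays against 0.74 and 20.1. Rhox homeobox genes of chromosome X were higher for 3 of 4, including Rhox6 at 651 and 413 on the mGS and ES arrays against 2.56 and 83.6 and Rhox9 at 574 and 389.5 on the mGS and ES arrays against 55.8 and 133. The Nlrp genes Nlrp4c and Nlrp14, of a family active in oocytes, were lower for 2 of 6 compared, with Nlrp4c at 4881 and 3519 on the germline arrays against 23.4 and 32.1. Mage genes were higher for 1 and lower for 3 of 11.

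Outside the lists and families, the widest gap toward the mGS and ES arrays was that of Mtm1, a phosphoinositide phosphatase gene, at 21540 on the mGS and 22140 on the ES array against 364 and 316 on the GS and Trp53 KO GS arrays. Gtsf1l, a paralogue of the piRNA gene Gtsf1, was under the floor on both germline arrays and read 3277 and 2454 on the mGS and ES arrays, while Gtsf1 was on the other side. Trh, thyrotropin-releasing hormone, read 2375 and 4184 on the mGS and ES arrays against 49.2 and 99.5, and Ckb, brain creatine kinase, 3200 and 3450 on the mGS and ES arrays against 146 and 132. Gpd2, of the glycerol phosphate shuttle of mitochondria, was apart by 15.9-fold, and Pml, of nuclear bodies, by 14.2-fold at 2711 and 2027 on the mGS and ES arrays against 19.3 and 142. Mylpf and Mymx, a light chain of fast muscle myosin and a gene of myoblast fusion, were apart by 23.6-fold and at least 21.8-fold. Apela, a peptide hormone of the early embryo, was apart by at least 11.5-fold.

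Toward the germline, Bnc1, a zinc finger gene of germ cells and keratinocytes, read 6716 on the GS and 5283 on the Trp53 KO GS array against 1.32 and 80.4 on the mGS and ES arrays, and Pygl, liver glycogen phosphorylase, 4478 and 3688 on the germline arrays against 109.5 and 104. Glis3, a Krüppel-related factor, was apart by 23.6-fold at 2331 and 2302 on the germline arrays against 97.7 and 91.4. Stk31, a kinase-like gene with a Tudor domain expressed in germ cells, read 4080 and 6996 on the germline arrays against 256 and 187. Uba1y, the Y-linked ubiquitin-activating enzyme gene, read 12970 and 15120 on the germline arrays against 748 and 28.2. Reln, reelin, was uneven within the side, at 1306 and 5161 on the germline arrays against 96.1 and 80.9. Cirbp, the cold-inducible RNA-binding gene, was apart by 8.98-fold, and Irf8 by at least 10.7-fold. Tsc22d3, a glucocorticoid-induced gene on chromosome X, read 3195 and 6172 on the germline arrays against 58.5 and 159.6.

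Among chromosomes with at least 10 genes compared, which leaves out Y, chromosome X had the highest share in both directions. Of 7 Y-linked genes compared, 4 were lower and none higher. Of 437 X-linked genes compared, 70 (16.02%) were higher and 54 (12.36%) lower at a gap of 2-fold or more. Over the autosomes the share ran from 4.94% to 10.35% for the higher and from 5.69% to 11.43% for the lower genes. On the lower side the X held Nxf2, Tktl1, Taf7l, Tex13b, Scml2 and Tex11, germ cell genes or testis forms, and Taf9b. On the higher side it held Mtm1, Eras, Nr0b1, Tmsb4x, Slc7a3, Rhox5 and Pgk1. No test was made on these shares.

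**Figure D5:**
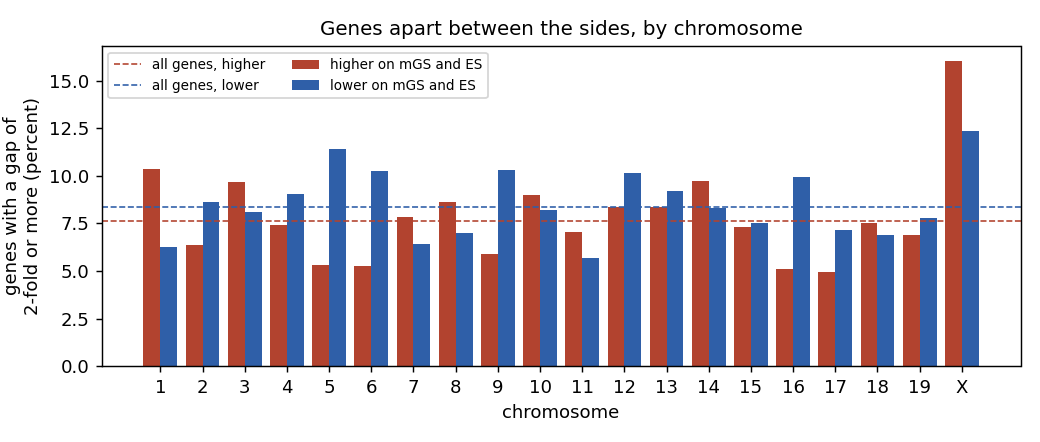
Share of compared genes with a gap of 2-fold or more, in percent, by chromosome (those with at least 10 genes compared, so without Y), higher on the mGS and ES arrays in red and lower in blue; dashed lines are the shares over all genes, 7.65% and 8.38%. Chromosome X has 16.02% higher and 12.36% lower.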

How the data were processed

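Total RNA of 4 mouse cultures was extracted with Trizol, labelled as biotinylated cRNA and hybridised to 4 Affymetrix arrays, per the labels' protocols. The deposited values are intensities, 1 per probe set, scaled by the authors to a 2% trimmed mean of 500 on each array. How probes were combined into probe sets is not stated in the labels. With Python 3.11.15, numpy 2.4.6 and pandas 2.3.3, 64 control probe sets were removed and the other 45037 were taken to log2 and quantile-normalised over the 4 arrays. The platform annotation gave 1 symbol for 34958 probe sets, several for 932 and none for 9160. Symbols were updated by gene identifier to RefSeq (GRCm38.p6), which matched 34754. Each gene took its probe set of highest mean, and values under the array median were raised to it. With 1 array per culture and 2 per side, no test was made and the number of arrays limits the precision. Side differences are differences of mean log2 values.

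Genes were named by rule. Up to 5 per list and direction were taken in order of gap, with up to 3 against the list's majority, 4 per family and direction, the 25 widest gaps per direction outside lists and families, and the 3 nearest to the threshold on either side of it. Predicted genes, 67 of the 2067, were counted and not named. The members, the 40 lists and the 73 name families were chosen with earlier results of these data known. Alternatives were the deposited values, median centring, other choices of probe set, other floors, a pseudocount of 32 and leaving out each array. The counting was tested on simulated data. There, all genes lay well above the floor, the spread was smaller than between the ES and mGS arrays, and planted differences were wider than most gaps here. That test does not cover genes near the floor or gaps near 2-fold. The signal of Trp53 is not reported here.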

Additional observations from a re-analysis of the deposited data

Results flagged for a closer look

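Probe sets without a platform symbol were outside the comparison by gene. Of 9160 such probe sets, 3364 were above the floor on at least 1 array. Among these, 129 (3.84%) were higher on the mGS and ES arrays at a gap of 2-fold or more and 126 (3.75%) lower. The widest of the lower ones read 20610 and 10050 on the GS and Trp53 KO GS arrays against 29.0 and 9.81 on the mGS and ES arrays, a gap of at least 122-fold, and the widest of the higher ones had a gap of 68.5-fold. Their genes are unnamed here, and the counts were not tested.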

How the results depend on the processing

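Under every alternative run, all of the 2067 genes with a gap of 2-fold or more that could still be compared kept their direction where they stayed apart, except 2 when probe sets of a gene were averaged. Leaving out an array, changing the floor or adding a pseudocount to the same probe set cannot reverse a gap. For those settings the kept direction was fixed in advance and is no check. Without a floor, all 18193 genes were compared, and 1544 were higher and 1671 lower at that gap. Removing the floor can only keep or widen a gap, so these counts could not fall. Leaving out an array can only keep or widen a gap, so counts rose by construction. The higher count ran from 1335 (without Trp53 KO GS) to 1624 (without mGS), and was 1555 without GS. The lower count ran from 1481 (without ES) to 2085 (without GS). Without normalisation, 40.4% of the genes apart by 2-fold were higher, against 47.7%. Of 518 named genes, 26 overlapped when probe sets were averaged, among them Acta2, Ccnd3, Hells, Hoxa5 and Jam3, and Ywhaz, named as a housekeeping gene, turned to a log2 gap of 0.43; the cause was not tested. At most 5 overlapped under each other setting. No paired analysis was possible because each culture has 1 array and the labels give no replicate numbers.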
